A study of Mus musculus with 31 samples.

Results

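Matrix metalloproteinases (MMPs) and their tissue inhibitors (TIMPs) were followed in bulk RNA of mouse tumors before and after a single dose of radiotherapy (RT). The members were 10 genes picked by symbol, Mmp2, Mmp3, Mmp9, Mmp10, Mmp12, Mmp13, Mmp14, Timp1, Timp2 and Timp3, out of 46072 genes in the tables, and each of the 10 was found in all 31 libraries. Every library was poly(A) RNA from the tumor of 1 wild-type male C57BL/6J mouse, bought young, that carried a graft of either RM-9 prostate cancer cells or MC-38 colon cancer cells under the skin of the right hind leg. Both lines were grown from culture, so each model is a single cell line in an immunocompetent host. RM-9 tumors gave 4 unirradiated controls and 4, 4 and 3 tumors collected at 3 h, at 12 h or at 24 h after 15 Gy, and MC-38 tumors gave 4 in each of these groups. The label time of the controls was 3 h, no control was collected at 12 h or 24 h, and the 3 RT groups of a model were compared with the same 4 controls. The sources used here name no sequencing run or batch for any library. The part of a run in differences between the models therefore cannot be told apart from that of the tumor model.

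MMPs are zinc-dependent endopeptidases that cleave collagens, laminins, fibronectin and many cell surface proteins, and most are secreted as inactive proenzymes. TIMPs bind the active site and block it, and Timp2 also takes part with Mmp14 in the activation of proMMP2 at the cell surface. In tumors they come from cancer cells as well as from fibroblasts, macrophages and neutrophils, and in bulk RNA fewer cells of a type and less RNA per cell cannot be told apart.

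Levels are given as TPM, a transcript level corrected for length whose total is the same in each library. Library depth, computed from the coverage and FPKM columns, was 21400000 to 29400000 reads after rounding. A large part of the TPM total was mitochondrial, 47.3% to 57.2% in RM-9 and 22.5% to 40.6% in MC-38, so the level of every nuclear gene depended on it. In MC-38 the mitochondrial share was 25.7% to 40.6% in controls and 23.0% to 25.9% at 12 h, and in RM-9 it was 47.8% to 50.5% in controls and 52.4% to 57.2% at 12 h. The labels call both tumors adenocarcinoma. Of the 5 epithelial markers, Krt8 had a median of 767 TPM in RM-9 and 0 TPM in MC-38, where its highest value was 0.202 TPM. Krt18, Krt19 and Epcam also had a median of 0 TPM in MC-38, but Epcam was low in RM-9 too, with a median of 1.15 TPM. Cdh1 was low in both models and did not follow the keratins, with medians of 0.441 TPM in RM-9 and 0.566 TPM in MC-38. The summed level of 7 skeletal muscle markers ranged from 3.02 to 10125 TPM over single tumors, with the highest value in MC-38 control mouse 1.

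Mmp13, Mmp12, Mmp3 and Mmp10 lie in this order, all on the plus strand, among 10 MMP genes of a cluster spanning 427 kb of chromosome 9 (7272514 to 7699585 in the coordinates of the files, which match GRCm38). The other members lie apart. Mmp2 is on chromosome 8 (92827328 to 92853417), Mmp9 on chromosome 2 (164940780 to 164955850), Mmp14 on chromosome 14 (54431612 to 54441265), Timp1 on the X chromosome (20870166 to 20874735), Timp2 on chromosome 11 (118301069 to 118355740) and Timp3 on chromosome 10 (86300372 to 86349506). Timp1 overlaps Syn1, Timp3 overlaps Syn3 and Mmp12 overlaps Mmp1b, each on the opposite strand. The libraries were stranded, but whether the counting used the strand is not given in the sources used here. Timp2 overlaps Cep295nl on its own strand, so reads there could be split between the 2 genes in either case. The level of Cep295nl was not examined. Syn1 did not exceed 1.83 TPM and Syn3 did not exceed 0.0559 TPM in any library, and Mmp1b did not exceed 0.920 TPM.

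Start regions of the 4 clustered members are shown because these genes carry a binding sequence of the AP-1 transcription factor, the best known element of inducible MMP promoters, close to their RefSeq starts. Each line gives the 100 bases before the start, 5′ to 3′ on the plus strand of GRCm38.p6, with the AP-1 match (TGAGTCA or its reverse complement TGACTCA) in capitals. The positions are chr9:7272414-7272513 for Mmp13, chr9:7347274-7347373 for Mmp12, chr9:7445722-7445821 for Mmp3 and chr9:7502242-7502341 for Mmp10.
Mmp13: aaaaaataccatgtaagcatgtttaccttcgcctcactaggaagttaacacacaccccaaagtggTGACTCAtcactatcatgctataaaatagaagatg
Mmp12: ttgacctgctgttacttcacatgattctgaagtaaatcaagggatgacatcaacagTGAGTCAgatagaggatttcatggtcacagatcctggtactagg
Mmp3: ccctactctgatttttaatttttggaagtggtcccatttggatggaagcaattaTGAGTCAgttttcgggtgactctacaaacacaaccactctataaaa
Mmp10: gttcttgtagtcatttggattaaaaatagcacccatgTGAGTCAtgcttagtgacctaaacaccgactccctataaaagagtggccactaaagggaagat
The match begins 35 bases before the start in Mmp13, 44 in Mmp12, 46 in Mmp3 and 63 in Mmp10. The Mmp12 line belongs to the downstream of its 2 RefSeq starts, and the window of the upstream start held no match. Windows from 250 bases before to 50 after the start were available for 8 members, and those of Mmp14, Timp1, Timp2 and Timp3 held neither spelling on either strand. Of 32851 mouse windows of this length, 5.2% held the motif. A match of letters is a description and does not show that the factor was bound.

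Before irradiation the inhibitor Timp1 was the most abundant member in both models, and every MMP of the cluster lay far below it. The MC-38 controls had less Timp1, Timp2, Mmp3 and Mmp10 and more Timp3 than the RM-9 controls, whereas Mmp14 was close in both. These 5 differences passed the test, limma on log2(TPM + 0.5) with Benjamini-Hochberg adjustment over 16141 genes. The same test called 75.3% of all genes, 64.4% higher and 10.8% lower in MC-38, and the median log2 difference of all genes was 0.62, against -0.30 for the 10 members.

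Timp1, which inhibits most secreted MMPs, was at 426, 508, 451 and 342 TPM in the 4 RM-9 controls and at 263, 227, 265 and 253 TPM in the 4 MC-38 controls. Timp2 was at 105, 109, 124 and 113 TPM in RM-9 and at 46.9, 37.6, 57.5 and 66.3 TPM in MC-38. The groups did not overlap for either inhibitor, with log2 differences of -0.76 ± 0.14 (SE, adjusted p = 3.33e-05, limma) for Timp1 and -1.14 ± 0.13 (SE, adjusted p = 2.64e-08, limma) for Timp2. Timp3, the inhibitor that binds to the matrix, went the other way. It was at 3.00, 2.28, 2.26 and 3.48 TPM in RM-9 controls and at 9.87, 9.05, 5.92 and 8.52 TPM in MC-38 controls, a log2 difference of 1.44 ± 0.24 (SE, adjusted p = 5.39e-06, limma).

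Mmp3, stromelysin-1, was at 40.7, 43.1, 28.5 and 49.4 TPM in RM-9 controls and at 6.15, 25.6, 6.28 and 12.7 TPM in MC-38 controls, a log2 difference of -1.85 ± 0.45 (SE, adjusted p = 0.000688, limma). Mmp10, stromelysin-2, was at 9.96, 14.3, 11.4 and 8.32 TPM in RM-9 and at 0.545, 2.13, 0.953 and 0.697 TPM in MC-38. This was the largest difference among the members, -2.93 ± 0.30 on the log2 scale (SE, adjusted p = 1.93e-09, limma), and no MC-38 tumor of any group, 5.54 TPM at most, reached the lowest RM-9 tumor at 6.92 TPM. For each of these 5 genes the exact two-sided permutation test of the control groups gave p = 0.0286, the smallest value that 4 tumors against 4 allow. Non-overlap of this kind was common, since 50.7% of genes were higher and 9.23% lower in all MC-38 controls than in all RM-9 controls.

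The remaining 5 members did not pass the test between the models. Mmp14, the membrane-type MMP that activates proMMP2, had a mean of 97.4 ± 3.05 TPM in RM-9 controls and 109 ± 15.4 TPM in MC-38 controls (SD, n = 4 each). Mmp2, gelatinase A, had means of 18.2 ± 5.53 and 22.5 ± 6.36 TPM, and Mmp9, gelatinase B, had means of 11.7 ± 4.07 and 11.4 ± 2.89 TPM (SD, n = 4 each). Mmp12, the macrophage elastase, and Mmp13, a collagenase that cleaves fibrillar collagen, were near 10 TPM with wide spread, 9.50 ± 4.13 and 11.1 ± 5.32 TPM in RM-9 and 6.34 ± 3.65 and 12.9 ± 9.18 TPM in MC-38 (SD, n = 4 each).

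In RM-9 controls the order of levels was Timp1, Timp2, Mmp14, Mmp3, Mmp2, Mmp9, Mmp13, Mmp10, Mmp12 and Timp3. The ranges of neighbours overlapped from Mmp2 down to Mmp12, so that stretch of the order is not resolved by 4 tumors, while the top 4 and Timp3 stood apart from their neighbours. In MC-38 controls the order was Timp1, Mmp14, Timp2, Mmp2, Mmp13, Mmp3, Mmp9, Timp3, Mmp12 and Mmp10, with overlap between neighbours from Mmp2 down to Mmp12. The scale matters here, because TPM recomputed from the coverage column of the files was 0.231 of the deposited TPM for Timp3 (median of RM-9 libraries). The ratio was nearly fixed for each gene except Mmp12, with a small range for Timp2 in MC-38 (0.882 to 0.952). It therefore entered the comparisons of a gene with itself little, except for those of Mmp12.

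**Figure D1:**
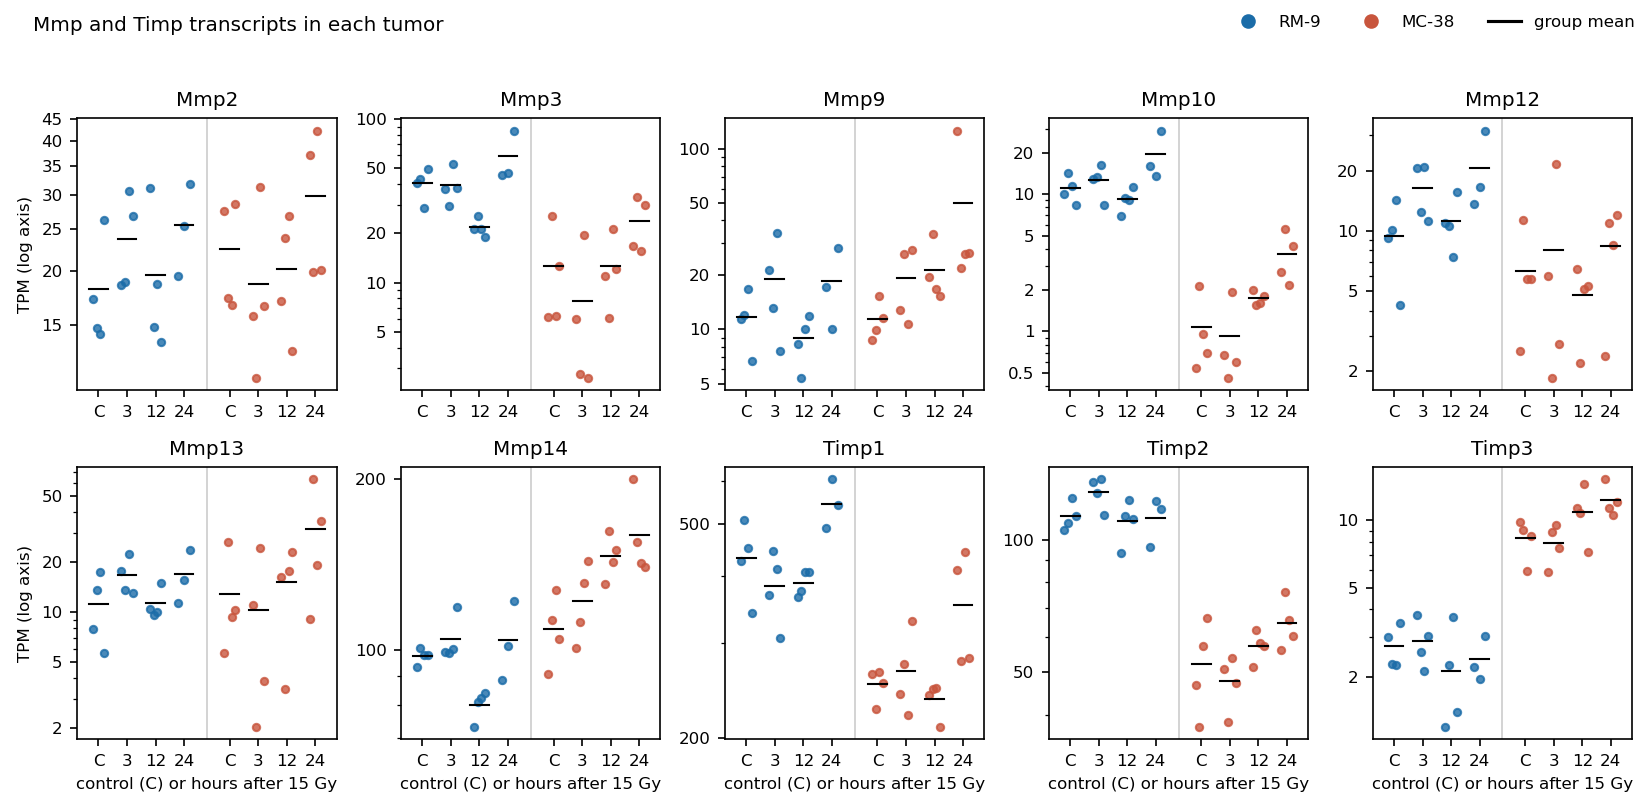
TPM (log axis) of the 10 members in every tumor, RM-9 in blue and MC-38 in red, by group (C, control, or hours after 15 Gy), with the group mean as a black line. Mmp10, Timp1 and Timp2 sit lower and Timp3 higher in all MC-38 controls than in all RM-9 controls, and 1 MC-38 tumor at 24 h stands far above the rest for Mmp9 at 125 TPM.

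In irradiated RM-9 tumors 1 of the 10 members passed the test against control, Mmp3, which was lower at 12 h. None passed the test 3 h or 24 h after RT. The count at 12 h was near the share of all genes. All genes showed 0.228%, 8.37% and 0% called in time order, the calls at 12 h being almost all downward (8.3% lower). At an unadjusted p under 0.05, limma gave 2 members at 3 h, 2 at 12 h and 4 at 24 h, beside 21.8%, 31% and 4.86% of all genes. The median log2 change of all 14013 genes tested was 0.06, -0.19 and -0.04, and that of the 10 members was 0.19, -0.19 and 0.50.

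Mmp3 was at 40.7, 43.1, 28.5 and 49.4 TPM in RM-9 controls, 37.6, 29.4, 52.8 and 37.6 TPM at 3 h, 21.1, 25.7, 21.2 and 19.0 TPM at 12 h, and 45.7, 46.7 and 84.8 TPM at 24 h. All tumors at 12 h were below all controls, as for 19.4% of all genes, and 2 of the 3 at 24 h were within the range of the controls. The change at 12 h was -0.86 ± 0.21 on the log2 scale (SE, adjusted p = 0.0320, limma), or -0.67 relative to the median of all genes. The exact permutation p was 0.0286, a value already fixed by the lack of overlap of 4 tumors with 4. The call was lost with median-ratio scaling (adjusted p = 0.199, limma) and without control mouse 1, 2 or 4 or RT mouse 1 or 4 (adjusted p up to 0.118, limma), with the direction kept each time. The genes whose profile over the 15 RM-9 tumors was most like that of Mmp3 were C4b and Serping1, an effector and an inhibitor of the complement system, and Cct2, a chaperonin subunit, with root mean square differences of 0.328, 0.328 and 0.351 on the centred log2 scale, where the SD of Mmp3 was 0.56.

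Mmp14 moved less. It was at 93.3, 101, 97.9 and 97.9 TPM in RM-9 controls and at 73.3, 80.9, 82.3 and 84.1 TPM at 12 h. The groups did not overlap, as for 19.4% of all genes in this direction, but the log2 change of -0.28 ± 0.09 (SE) had an adjusted p of 0.0688 by limma and was -0.09 relative to the median of all genes.

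At 3 h, Mmp12 and Mmp13 were the members with an unadjusted p under 0.05 in RM-9. Mmp12 was at 9.27, 10.1, 14.3 and 4.26 TPM in controls and at 20.7, 12.4, 20.9 and 11.2 TPM at 3 h, a log2 difference of 0.81 ± 0.34 (SE, adjusted p = 0.189, limma). Mmp13 was at 7.89, 13.6, 17.3 and 5.65 TPM in controls and at 17.5, 13.6, 22.3 and 12.97 TPM at 3 h, a difference of 0.65 ± 0.30 (SE, adjusted p = 0.224, limma). The groups overlapped for both genes. For Mmp12 the ratio of coverage to TPM itself ranged from 0.324 to 0.507 over RM-9 libraries, and with coverage in place of TPM its log2 difference was 0.59. Without control mouse 4 the differences at 3 h were 0.49 for Mmp12 and 0.38 for Mmp13.

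At 24 h, Mmp3, Mmp10, Mmp12 and Timp1 had an unadjusted p under 0.05 in RM-9 and none passed the adjustment. Mmp10 was at 16.1, 13.6 and 29.0 TPM at 24 h against 9.96, 14.3, 11.4 and 8.32 TPM in controls, a log2 difference of 0.75 ± 0.26 (SE, adjusted p = 0.998, limma). Mmp12 was at 13.6, 16.6 and 31.6 TPM at 24 h, a difference of 1.10 ± 0.37 (SE, adjusted p = 0.962, limma). Mouse 3 was the highest of the 3 tumors for all 7 MMPs, and without it the differences were 0.44 for Mmp10, 0.75 for Mmp12 and 0.22 for Mmp3. Timp1 was at 491, 605 and 541 TPM at 24 h against 342 to 508 TPM in controls, a difference of 0.35 ± 0.14 (SE, adjusted p = 0.999, limma), and Mmp3 differed by 0.51 ± 0.23 (SE, adjusted p = 0.999, limma). Each of the 4 groups overlapped its controls.

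Mmp2, Mmp9, Timp2 and Timp3 were named by no RM-9 comparison. Over the 15 RM-9 tumors, Mmp2 ranged from 13.7 to 31.8 TPM, Mmp9 from 5.38 to 33.9 TPM, Timp2 from 93.1 to 137 TPM and Timp3 from 1.19 to 3.78 TPM.

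In MC-38 tumors, none of the 10 members passed the test at 3 h, Mmp14 rose at 12 h, and Mmp9, Mmp10 and Mmp14 rose at 24 h, while the other 7 did not pass at any time. All genes showed 0.0637%, 31.1% and 13.8% called in time order, nearly all of them upward at the later times (28.5% and 13.2% higher). Of the 10 members, 0, 1 and 5 had an unadjusted p under 0.05 at these times by limma, beside 19.9%, 48.1% and 30.5% of all genes. The median log2 change of all 15698 genes tested was 0.19, 0.33 and 0.22, and that of the members was -0.10, 0.17 and 0.54.

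Mmp14 was at 90.7, 113, 127 and 104 TPM in MC-38 controls, 101, 112, 131 and 143 TPM at 3 h, 131, 162, 143 and 150 TPM at 12 h, and 200, 155, 142 and 140 TPM at 24 h. Every tumor at 12 h and 24 h was above every control, as for 34.5% of all genes at 12 h and 14.8% at 24 h. The log2 changes were 0.43 ± 0.14 at 12 h (SE, adjusted p = 0.0321, limma) and 0.54 ± 0.14 at 24 h (SE, adjusted p = 0.0187, limma), of which 0.11 and 0.32 remained relative to the median of all genes. With median-ratio scaling the changes were 0.08 (adjusted p = 0.675, limma) and 0.28 (adjusted p = 0.163, limma). Without MC-38 control mouse 1, the tumor with the most skeletal muscle RNA and the highest mitochondrial share of its model, they were 0.35 (adjusted p = 0.0998, limma) and 0.46 (adjusted p = 0.0522, limma). The call at 12 h was also lost without control mouse 4 or RT mouse 2, 3 or 4 (adjusted p 0.0578 to 0.0876, limma), with the direction kept. The genes closest to Mmp14 in profile over the 16 MC-38 tumors were Rab11fip5, Trim32 and Copa, with root mean square differences of 0.0870, 0.0924 and 0.0995 on the centred log2 scale, where the SD of Mmp14 was 0.28.

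Mmp9 was at 8.72, 9.91, 15.4 and 11.5 TPM in MC-38 controls and at 125, 21.7, 26.0 and 26.5 TPM at 24 h. All tumors at 24 h were above all controls, with mouse 1 more than 4 times above the other RT tumors. The log2 change was 1.70 ± 0.46 (SE, adjusted p = 0.0240, limma), or 1.48 relative to the median of all genes. Without mouse 1 it was 1.11 (adjusted p = 0.0331, limma), and without control mouse 1 it was 1.58 (adjusted p = 0.0671, limma). Dunnett's comparisons on TPM did not call Mmp9. At 3 h it was at 12.8, 26.1, 10.6 and 27.4 TPM and at 12 h at 19.4, 33.6, 16.7 and 15.3 TPM, and both groups overlapped the controls. The closest genes in profile were Plac1, Matn2 and Serpind1, with root mean square differences of 0.358, 0.395 and 0.399 where the SD of Mmp9 was 0.88.

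Mmp10 was the least abundant member in MC-38 controls, at 0.545, 2.13, 0.953 and 0.697 TPM, and was at 2.72, 5.54, 2.16 and 4.21 TPM at 24 h. The lowest tumor at 24 h was just above the highest control. The log2 change was 1.42 ± 0.33 (SE, adjusted p = 0.0118, limma), or 1.20 relative to the median of all genes, and Mmp10 was the one member whose call at 24 h held under median-ratio scaling (1.24, adjusted p = 0.0137, limma) and without each mouse in turn. At these levels depth limited the value, since the mean coverage of the gene was as low as 0.669 reads per base. Slc5a4a, Abi3bp and Flt4 were closest in profile, with root mean square differences of 0.367, 0.370 and 0.378 where the SD of Mmp10 was 0.76.

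Timp1 and Timp3 did not pass the adjusted test at 24 h, but all RT tumors were above all controls for both. Timp1 was at 263, 227, 265 and 253 TPM in controls and at 411, 278, 444 and 282 TPM at 24 h, a log2 difference of 0.46 ± 0.15 (SE, adjusted p = 0.0555, limma). Timp3 was at 9.87, 9.05, 5.92 and 8.52 TPM in controls and at 15.2, 11.3, 10.5 and 12.1 TPM at 24 h, a difference of 0.54 ± 0.21 (SE, adjusted p = 0.0913, limma). In all, 5 members had every tumor at 24 h above every control, Mmp9, Mmp10, Mmp14, Timp1 and Timp3, beside 14.8% of all genes. When the fit held only controls and 24 h tumors, none of the 10 members passed, with Mmp10 at an adjusted p of 0.0651 by limma.

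Mmp2, Mmp3, Mmp12, Mmp13 and Timp2 were named by no MC-38 comparison with control. Mmp3 had means of 12.7 ± 9.13 TPM in controls and 23.9 ± 9.06 TPM at 24 h, and Mmp13 had means of 12.9 ± 9.18 and 31.7 ± 23.5 TPM (SD, n = 4 each). Over the 16 MC-38 tumors, Mmp2 ranged from 11.3 to 42.2 TPM, Mmp12 from 1.85 to 21.6 TPM and Timp2 from 37.6 to 75.9 TPM.

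**Figure D2:**
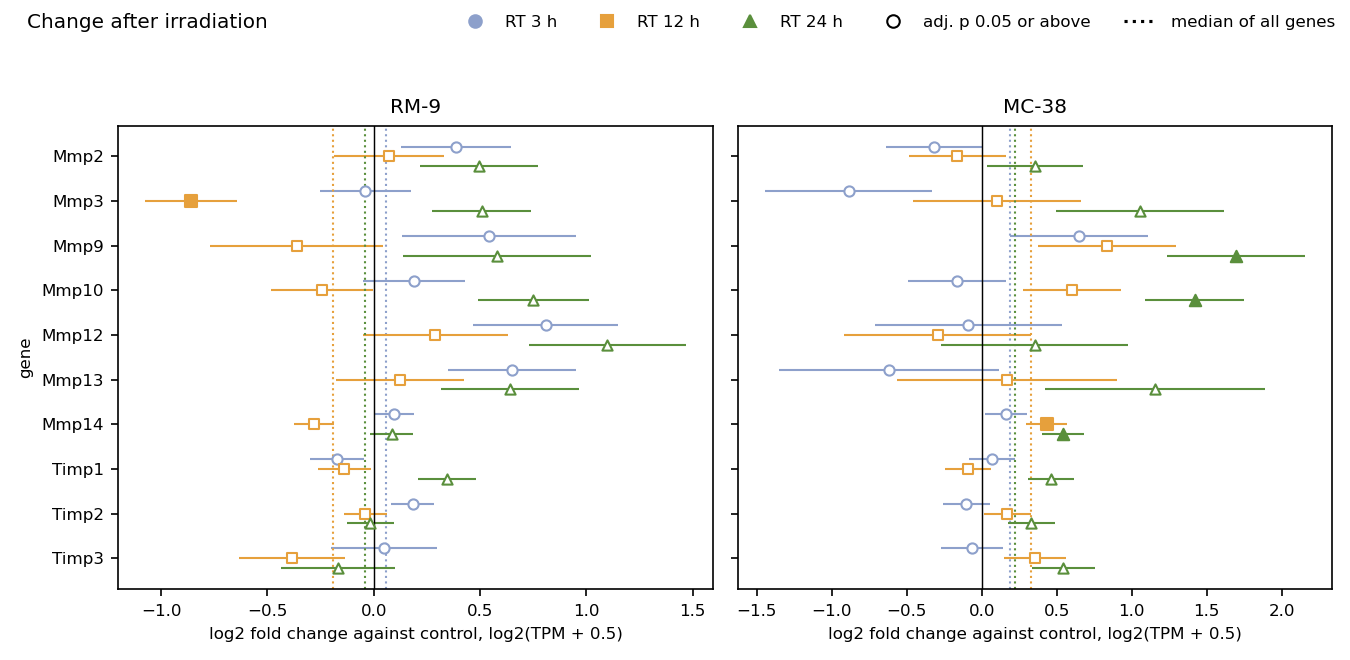
Log2 fold change against control on the log2(TPM + 0.5) scale (horizontal axis) for each member (rows), with bars of 1 SE, by time after 15 Gy, in RM-9 (left) and MC-38 (right), whose axes differ in range. Filled symbols passed an adjusted p of 0.05 and dotted lines are the median of all genes. Mmp3 is the filled symbol in RM-9, at 12 h, and Mmp14 at 12 h and Mmp9, Mmp10 and Mmp14 at 24 h are the filled symbols in MC-38.

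**Figure D3:**
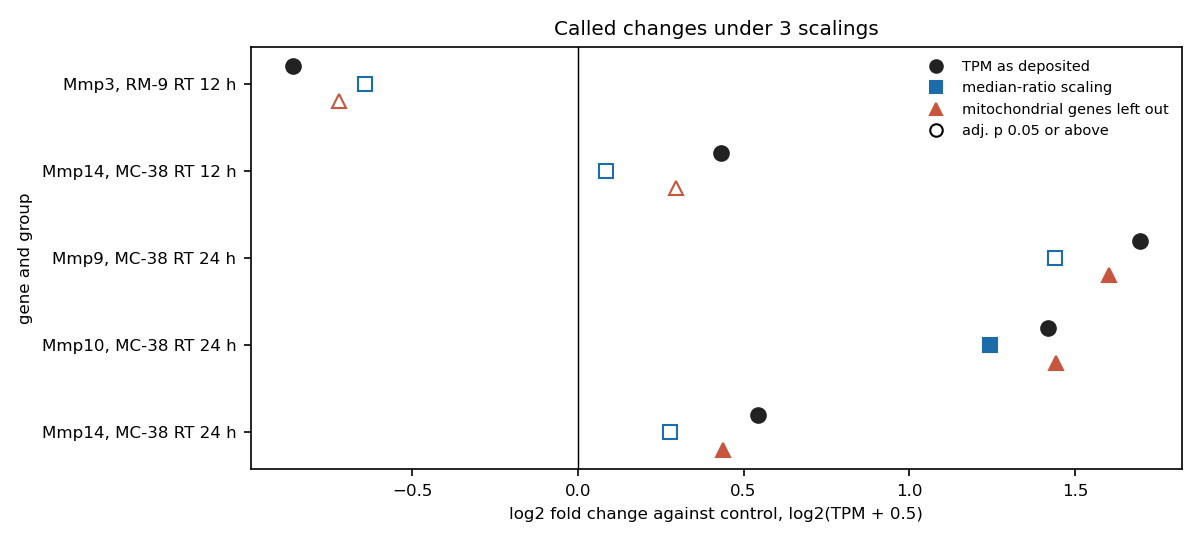
Log2 fold change (horizontal axis) of the 5 called member changes (rows) with TPM as deposited, with median-ratio scaling and with mitochondrial genes left out of the TPM total. Filled symbols passed an adjusted p of 0.05, and Mmp10 in MC-38 at 24 h is the one filled under all 3 scalings.

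The difference between the models was tested directly as the change in MC-38 minus the change in RM-9. None of the members passed at 3 h, where limma called 0% of all genes, or at 24 h, where it called 2.25%. At an unadjusted p under 0.05, limma gave 0 members beside 9.83% of genes at 3 h and 1 member beside 21.7% at 24 h. At 12 h Mmp14 passed, with a difference of 0.71 ± 0.17 on the log2 scale (SE, adjusted p = 0.00400, limma), but 43.2% of all genes passed as well, 42.7% in this direction, and the median of all genes was 0.49. Relative to that median the difference of Mmp14 was 0.22, and with median-ratio scaling it was 0.18 (adjusted p = 0.531, limma). Timp3 at 12 h differed by 0.74 ± 0.34 (SE, adjusted p = 0.0732, limma) and Mmp14 at 24 h by 0.46 ± 0.18 (SE, adjusted p = 0.138, limma).

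The summed TPM of the 7 MMPs divided by that of the 3 TIMPs is independent of library scaling. It averaged 0.368 ± 0.0437 in RM-9 controls, 0.457 ± 0.0799 at 3 h, 0.324 ± 0.0227 at 12 h and 0.402 ± 0.114 at 24 h (SD, n = 4, 4, 4 and 3). In MC-38 it averaged 0.570 ± 0.130 in controls, 0.589 ± 0.172 at 3 h, 0.730 ± 0.0556 at 12 h and 0.727 ± 0.161 at 24 h (SD, n = 4 each). The range of every RT group overlapped that of its controls, whereas the lowest MC-38 control, 0.443, was above the highest RM-9 control, 0.432. The sums add different genes, so the scale of each gene enters. TPM recomputed from coverage was 0.599 of deposited TPM for Mmp14 and 0.975 for Timp1 in MC-38 (medians). In RM-9 these medians were 0.602 and 0.979. The narrow separation of the controls was seen in TPM as deposited. With coverage in the sums, MC-38 control mouse 1 lay below RM-9 control mouse 4, so the separation did not hold. Timp1 and Mmp14 dominated both sums, and without them the averages were 0.884 in RM-9 controls and 1.17 in MC-38 controls. The control ranges then overlapped, at 0.812 to 0.971 in RM-9 and at 0.859, 0.901, 0.929 and 1.99 in MC-38, and only MC-38 mouse 2 lay above the RM-9 range. The 3 RM-9 tumors at 24 h, at 1.25, 1.03 and 1.90, were then all above the RM-9 controls.

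The clustered genes varied strongly from mouse to mouse within groups, most of all in MC-38. In the 4 MC-38 tumors collected at 3 h, Mmp13 was at 10.99, 2.03, 24.4 and 3.84 TPM and Mmp12 was at 5.98, 1.85, 21.6 and 2.74 TPM, so both were highest in mouse 3 and lowest in mouse 2. At 24 h in MC-38, Mmp13 was at 9.11, 63.0, 19.2 and 35.5 TPM, and Mmp3 at 16.8, 33.6, 15.6 and 29.7 TPM, both highest in mouse 2. Mmp10, Mmp12 and Mmp13 reached their maximum in the same mouse in many groups. Mmp10 shared its highest mouse with Mmp12 in 6 of the 8 groups, as did Mmp10 with Mmp13 and Mmp12 with Mmp13. Of 13569 genes tested in both models, 0.14% matched Mmp10 in as many groups, 0.214% matched Mmp12 and 0.951% matched Mmp13. Mmp9 and Mmp14, which lie on different chromosomes, also shared the highest mouse in 6 of 8 groups, including all 4 MC-38 groups. Of the same genes, 2.81% matched Mmp9 and 3.78% matched Mmp14 in as many groups. These counts were made after the values were seen and are a description.

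In all 4 MC-38 groups the tumor with the highest Mmp13 was also the tumor with the lowest sum of skeletal muscle markers, which was 19.06, 73.87, 9.001 and 13.18 TPM in those tumors beside group maxima of 438 to 10125 TPM. In RM-9 this held in 2 of 4 groups. For Mmp3 and Mmp10 it held in 3 of 4 MC-38 groups and 1 of 4 RM-9 groups each, and for Mmp12 in 2 of 4 in both models. The share of all genes that peak in the tumor with the least muscle RNA was not counted, and the part of muscle content in these levels was not tested.

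**Figure D4:**
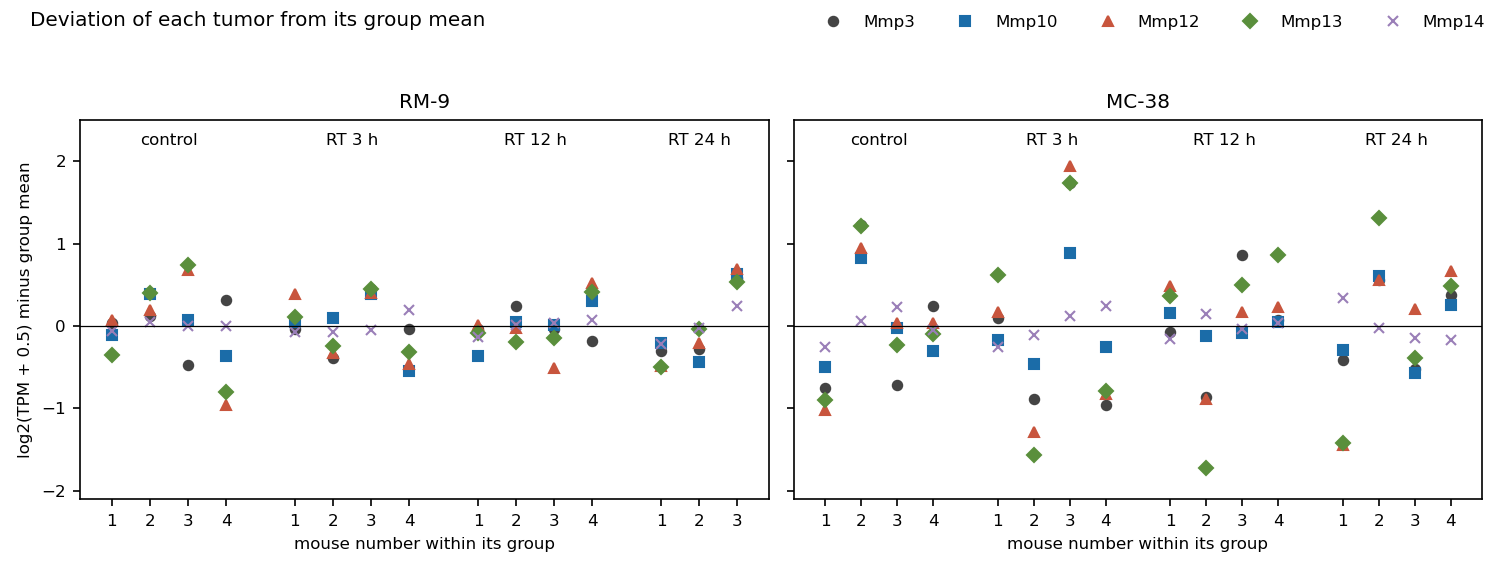
Deviation of each tumor from its group mean on the log2(TPM + 0.5) scale (vertical axis) for Mmp3, Mmp10, Mmp12 and Mmp13 of the cluster and, for comparison, Mmp14, by mouse number within each group in RM-9 (left) and MC-38 (right). The clustered genes lie together above 0 in MC-38 control mouse 2 and RT 3 h mouse 3, while Mmp14 spreads less.

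Markers of other cell types were followed in the same tumors. All genes called lower made up 2.59% at 12 h and 0.548% at 24 h in MC-38 and 8.3% at 12 h in RM-9, and those called higher in MC-38 at 24 h made up 13.2%. The sum of 9 macrophage markers was 907 to 1429 TPM in MC-38 controls, 329 to 783 TPM at 12 h and 743 to 936 TPM at 24 h, with 7 of 9 genes lower at 12 h and none at 24 h. In RM-9 it was 384 to 607 TPM in controls and 196 to 383 TPM at 12 h, with 4 of 9 lower. The sum of 9 neutrophil markers was 11.8 to 25.8 TPM in MC-38 controls and 20.5 to 36.8 TPM at 24 h, and 0 of the 5 tested passed. Camp was at 0 TPM in every library. In MC-38 at 24 h mouse 1, the tumor with the highest Mmp9, the neutrophil sum was 24.9 TPM, within the range of the controls, and the fibroblast sum was 634 TPM, above the range of 304 to 434 TPM in controls. That tumor also had the highest endothelial sum, 80.8 TPM, and the highest muscle sum, 3405 TPM, of its group. Mouse 3 of the group, with Mmp9 at 26.0 TPM, had a fibroblast sum above the controls too, 454 TPM. The endothelial sum was 45.3 to 60.0 TPM in MC-38 controls and 61.1 to 80.8 TPM at 24 h, with 2 of 6 genes higher, and the T cell sum was 13.1 to 20.1 and 6.53 to 12.7 TPM, with 2 of 5 lower. The part of these cells in the member changes was not tested.

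Counts of other genes of the proteolytic network are read against the shares of all genes called. In MC-38 the test called 28.5% of them upward and 2.59% downward at 12 h, and 13.2% upward at 24 h. In RM-9 it called 0.0714% upward and 8.3% downward at 12 h, and 0% at 24 h. Of 16 further MMP genes, 8 were tested in MC-38 and 2 of them rose at 24 h, Mmp28 (epilysin) by 0.80 ± 0.20 (SE, adjusted p = 0.0173, limma) and Mmp19 by 0.71 ± 0.22 (SE, adjusted p = 0.0410, limma). Both stayed below 8 TPM in MC-38. None of the further MMPs passed in any RM-9 comparison, where Mmp19, the most abundant of them, had means of 11.05, 12.6, 12.5 and 12.2 TPM in time order. Mmp1a and Mmp1b of the cluster, whose start regions also held the AP-1 letters, were at 0.5002 to 1.77 and 0.228 to 0.920 TPM in RM-9 and at 0 TPM in all MC-38 controls. Mmp7 was listed at 0 TPM in every library although its upstream start region held the motif. The start regions of Mmp8, Mmp27 and Mmp20, the remaining genes of the cluster, held no match. Of 4 other inhibitors, 2 were tested in each model and none passed after RT. The most abundant, Tfpi2, a secreted Kunitz-type inhibitor, had a mean of 5.88 ± 2.15 TPM in RM-9 controls and 4.85 ± 0.934 TPM in MC-38 controls (SD, n = 4 each).

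Of the plasminogen system, which activates several proMMPs, the urokinase gene Plau fell in MC-38 at 12 h by 0.49 (SE 0.16, adjusted p = 0.0322, limma) and rose at 24 h by 0.53 ± 0.16 (SE, adjusted p = 0.0361, limma), and the tissue-type activator Plat rose at 24 h by 1.09 ± 0.31 (SE, adjusted p = 0.0290, limma). Of the 6 genes tested in MC-38, these were 1 lower at 12 h (2.59% of all genes) and 2 higher at 24 h (13.2% of all genes). In RM-9, Serpine2, an inhibitor of plasminogen activators, rose at 12 h by 0.56 ± 0.14 (SE, adjusted p = 0.0316, limma) and was the 1 of 7 that passed at any time.

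Of 13 ADAM and ADAMTS proteases, 3 rose in MC-38 at 12 h (Adamts4, Adam15 and Adam9) and 2 at 24 h (Adamts4 and Adam15), beside the 28.5% and 13.2% of all genes higher. The aggrecanase gene Adamts4 went from 8.70 ± 1.68 TPM in controls to 16.1 ± 0.847 and 20.0 ± 4.56 TPM (SD, n = 4 each). Of 7 surface partners and activators, 4 rose at 12 h and 3 at 24 h, beside the same shares of all genes, among them Furin, the convertase that activates proMMP14, by 0.69 and 0.64 on the log2 scale, Cd44, a docking receptor of Mmp9, by 0.62 and 0.69, and Itgav, an integrin chain, by 0.72 and 0.61. None of the genes of these lists passed in RM-9, where the most abundant were Adam15, with a mean of 39.9 ± 1.30 TPM in controls, and the tetraspanin Cd63, with 852 ± 80.9 TPM (SD, n = 4 each).

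Of 11 matrix substrates, 5 rose in MC-38 at 12 h and 5 at 24 h, beside 28.5% and 13.2% of all genes higher. Fn1, fibronectin, rose from 131 ± 45.3 TPM in controls to 435 ± 100.2 TPM at 12 h and 390.0 ± 139 TPM at 24 h, and Lamb1, a laminin chain, from 33.4 ± 6.12 to 64.9 ± 5.75 and 80.7 ± 11.4 TPM (SD, n = 4 each). Lamc1, another laminin chain, rose by 0.89 and 0.79 on the log2 scale. In RM-9, 0 of the 11 passed at any time, and the most abundant, Spp1 (osteopontin), had means of 2319, 2221, 2182 and 2430 TPM in time order.

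Of the cytokines known to induce MMP genes, 5 were tested in MC-38 and 3 rose at 24 h, beside 13.2% of all genes. Il6 went from 1.34 ± 0.323 to 6.22 ± 2.22 TPM, Osm, oncostatin M, from 3.54 ± 0.357 to 9.47 ± 0.872 TPM and Tnf from 3.90 ± 1.14 to 7.59 ± 0.942 TPM (SD, n = 4 each), with adjusted p values of 0.000287, 0.000443 and 0.00520 by limma. Il6 had also risen at 12 h by 0.77 ± 0.21 (SE, adjusted p = 0.0194, limma). In RM-9, 0 of 5 passed at any time, and the most abundant, Tgfb1, had a mean of 58.7 ± 8.37 TPM in controls (SD, n = 4).

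Of 11 AP-1, ETS and NF-kB genes, the AP-1 subunit Fos rose in MC-38 at 3 h from 8.97 ± 1.34 to 17.2 ± 3.30 TPM (SD, n = 4 each, adjusted p = 0.0366, limma), beside 0.051% of all genes higher. At 12 h, 4 of the 11 rose, among them Fosl2 by 0.63, Nfkb1 by 0.59 and Fosl1 by 0.63, and at 24 h 2 rose, Junb by 0.65 and Nfkb1 by 0.62, beside the 28.5% and 13.2% of all genes higher. In RM-9, Rela, the p65 subunit of NF-kB, fell at 12 h by 0.31 (SE 0.09, adjusted p = 0.0477, limma), beside 8.3% of all genes lower, and no other gene of the list passed.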

How the data were processed

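Polyadenylated RNA of 31 tumors was sequenced from stranded libraries as single reads of 75 bases. The deposited tables hold, per gene, coverage, FPKM and TPM made by the authors; the submitters' notes name bcl2fastq 2.17 and build GRCm39, but 91.1% of 45137 shared genes had the start or end of the GRCm38 annotation (GENCODE M21). The aligner and counter are not given in the sources used here. Depth was computed from coverage and FPKM. TPM holds no read counts, so log2(TPM + 0.5) was fitted with limma 3.58.1 (R 4.3.3, eBayes with trend) on genes averaging 0.5 TPM or more, by model (4 groups) and jointly for the models (8 groups), with Benjamini-Hochberg adjustment over all genes and a threshold of 0.05. A fold change on this scale understates that of low genes. Fits were tested on simulated data. Exact permutation tests used scipy 1.17.1. The members and lists were chosen with earlier results of these data known. Fold change, SE and adjusted p are given for members with an unadjusted p under 0.05, and per list the 3 genes with the smallest p that passed, or the most abundant gene, are named. The labels number mice, and samples with the same number did not deviate together. Alternatives were other pseudocounts, filters, scalings, moderation, a replicate block, fits of 2 groups, Dunnett's comparisons, leaving out each mouse and, chosen after seeing the data, coverage in place of TPM. Promoter windows are from RefSeq (GRCm38.p6). The limma p-values set a difference against the spread between these mice, pooled over all groups of a fit and moderated across genes.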

Additional observations from a re-analysis of the deposited data

Results flagged for a closer look

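In 70 sets of 4 tumors (a member in a group), 4 held a tumor whose gap to the next was nearly the whole range of the set. Chance gives about 1 in 20, so this count was near what chance gives, and the sets share tumors between members. The 4 tumors were Mmp9 in MC-38 at 24 h, mouse 1 (125 TPM against 21.7 to 26.5 TPM in the others), Mmp10 in MC-38 at 3 h, mouse 3 (1.94 TPM against 0.458 to 0.675 TPM), Mmp13 in RM-9 at 12 h, mouse 4 (15.0 TPM against 9.64 to 10.5 TPM) and Mmp14 in RM-9 at 3 h, mouse 4 (119 TPM against 98.9 to 101 TPM). The change of Mmp14 at 12 h differed between the models by 0.71 on the log2 scale (adjusted p = 0.00400, limma, beside 43.2% of all genes). Mmp14 was lower in all 4 irradiated RM-9 tumors and higher in all 4 irradiated MC-38 tumors than in every control of the model. Of all genes, 19.4% were lower in this way in RM-9 and 34.5% were higher in MC-38.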

How the results depend on the processing

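No log2 change of a single refitted member changed direction under any alternative, whereas the ratio of summed MMP to TIMP TPM in MC-38 did, as given below. The count of members called in RM-9 at 12 h (1, Mmp3) was 0 without a filter, with median-ratio scaling, without mitochondrial genes, with only the 2 groups, with a minimum log2 change of 1 and by Dunnett's comparisons; without each mouse it was 0 to 1. The count in MC-38 at 12 h (1, Mmp14) was 0 under the first 5 of these and 0 to 2 without each mouse. The count in MC-38 at 24 h (3) was 1 with median-ratio scaling, 0 with only the 2 groups and 1 to 4 without each mouse; Dunnett's comparisons gave 3 as well, but with Timp1 in place of Mmp9. The count of members differing between models at 12 h (1) was 0 with median-ratio scaling, without mitochondrial genes and with the minimum change, and 1 to 2 without each mouse. In RM-9 at 24 h Dunnett's comparisons gave 1 (Timp1 higher). The cause of these differences was not tested. The replicate block changed no call, giving 1, 1, 3, 5 and 1 where the fit without it gave 1, 1, 3, 5 and 1 (RM-9 12 h, MC-38 12 h, MC-38 24 h, baseline and model difference at 12 h). Same-numbered mice correlated at a median of -0.061 in RM-9 and -0.073 in MC-38.

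Without Mmp14 and Timp1 the ratio of summed MMP to TIMP TPM in time order from the controls was 0.884, 0.968, 0.742 and 1.39 in RM-9 tumors, whereas MC-38 tumors had 1.17, 1.14, 1.11 and 1.94. In MC-38 the averages at 3 h and 12 h were then below that of the controls. With all members they were above it, at 0.589 and 0.730 against 0.570. Of 406 refits of single members, 373 kept their side of the threshold, 28 lost it and 5 gained it. These refits include changes that were not called and the differences between the controls, each of which held in 17 of 17. The called change of Mmp3 in RM-9 at 12 h held in 9 of 18 refits. In MC-38, Mmp14 at 12 h held in 9 of 18, and at 24 h Mmp9 held in 14 of 18, Mmp10 in 16 of 17 and Mmp14 in 15 of 18. Among the losses, Mmp9 at 24 h had adjusted p = 0.0600 with median-ratio scaling (limma); among the gains, Timp1 at 24 h in MC-38 had adjusted p = 0.0383 without RT mouse 2 (limma). Depth limits the low members most, with Mmp10 in MC-38 at 0.669 reads per base in its lowest library.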
